A study of Mus musculus with 24 samples.

Results

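Malat1, Otub1, Psmd6, Vcp, Ywhaq, Polr1c, Pdxdc1, Rpgrip1, Acaa2 and Cfap298 are genes whose probe sets disagreed by strain in mouse ventral prostate. For Otub1 and Acaa2 they disagreed in the size of the strain difference. FVB was highest at both Otub1 probe sets and on the low side at all 3 of Acaa2. The 10 genes are among the 9431 genes measured above the filter on low values, and among the 3315 genes with at least 2 such probe sets. They were chosen by name, with earlier results on the strain differences of these arrays in view, so their own strain values are described here without a test. Every probe set that the platform annotation gives to 1 of these symbols alone was taken, which made 35 probe sets, of which 31 passed the filter.

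The study hybridised ventral prostate RNA to 24 Affymetrix MOE430A arrays. There were 4 for each of 6 inbred strains, namely BALB/c, C57BL/6, AKR, FVB, SWR and 129X1. All mice were wild type, untreated, 8 weeks old and kept on a standard mouse diet, and the arrays of a strain are labelled as biological replicates. The labels do not say whether an array held 1 animal or several, so tests below measure the spread between these samples. According to its title, the series sought modifiers of cancer through expression differences between parental strains.

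A probe set on this kind of array is a group of short oligonucleotides matched to 1 stretch of a transcript, mostly toward its 3′ end, and its signal is the intensity. Genes often have several probe sets that sit on different exons, on alternative 3′ ends or on repeats of the same end. A difference between strains in the amount of a transcript reaches every probe set on it, while a difference in splicing, in the polyadenylation site or in the bases under the probes can reach 1 probe set and leave another. Which of these holds for any gene below was not tested. In the names, "_a_at" stands for a probe set shared by transcripts of 1 gene, "_s_at" for one shared by several transcripts or genes, and "_x_at" for one with probes much like other sequences. No probe or transcript sequence is shown, since the sequences of the probes were not used here.

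These genes span several cell functions. Psmd6, Vcp and Otub1 act in the ubiquitin system, which tags proteins, pulls them out of complexes and membranes, and degrades them in the proteasome. Ywhaq is a 14-3-3 adaptor of phosphorylated proteins, Polr1c a subunit of RNA polymerases I and III, and Malat1 an abundant noncoding RNA of the nucleus. Acaa2 and Pdxdc1 are an enzyme of fatty acid oxidation and a protein of the pyridoxal phosphate decarboxylase family. Rpgrip1 and Cfap298 belong to cilia.

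Values are intensities after each array was scaled to the same trimmed mean, or, where log2 is stated, those intensities with 16 added before taking log2. Means are given ± SD over the 4 arrays of a strain. Folds are antilogs of differences on that log2 scale, which compresses the folds of faint probe sets. For each gene, the disagreement is the log2 ratio of 2 of its probe sets in a strain, centred on the mean of the 6 strain means, for the pair and strain where it is widest. The probe set that departed further in that strain is called the outlying one. An array's own threshold for low values was its 40th percentile, between 29.8 and 36.7, and values under it have no reliable order.

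The arrays resembled each other within strains. All 24 correlated best with an array of their own strain. Of 11 ventral prostate luminal markers 8 were on the array under a single symbol, and all 8 were above the filter. Their medians included 7309 for Spink1, 1694 for Krt18 and 962 for Hoxb13. Markers of seminal vesicle, an adjoining gland, summed to 41.5 to 92.4 over 4 genes, with Svs4 at a median of 1.47. Over all tested probe sets, 36.4% passed limma's F test among strains at an adjusted p under 0.05, and 7.61% had 1 strain's 4 arrays all above or all below the other 20. These shares stand beside the counts for the 10 genes. Of their 31 tested probe sets 23 passed the F test, but the genes were chosen for strain differences, and nothing is read from that count.

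Psmd6 is a subunit of the regulatory particle that caps the proteasome and receives ubiquitin-tagged proteins. Its probe set 1423696_a_at read 17.3, 12.6, 14.7 and 4.83 on the 4 arrays of 129X1, all under the threshold for low values. On the other 20 arrays it lay between 120 and 236, with a median of 167. The 129X1 arrays were separate from all others at this probe set. The second probe set, 1423697_at, which the annotation draws from the same sequence record, read 438, 352, 387 and 428 in 129X1. The other 20 arrays lay between 346 and 547 there, so 129X1 was within the range of the other strains. In 129X1 the log2 mean was 4.80 ± 0.30 at 1423696_a_at against a mean of 7.47 over the other strains, 6.35-fold lower, and at 1423697_at the gap was 1.08-fold. The disagreement was -2.13 ± 0.35 (SD, n = 4), and -1.22 or -2.75 with a pseudocount of 64 or 4 in place of 16.

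Vcp is the ATPase that pulls ubiquitin-tagged proteins out of complexes and the endoplasmic reticulum membrane. Its probe set 1457588_at was dim in every strain. On the 4 AKR arrays it read 10.0, 5.52, 2.57 and 9.03, all under the threshold, and on the other 20 arrays 26.0 to 67.9 with a median of 46.6. AKR did not overlap the other strains, though 3 of the other 20 arrays were themselves under the threshold. The bright probe set 1423030_at read 1320, 1584, 1827 and 1390 in AKR and 1294 to 2102 elsewhere. AKR was thus among the other strains at this brighter probe set. The disagreement was -1.26 ± 0.43 and depended on the pseudocount, with -0.58 at 64 and -1.93 at 4.

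Otub1 is a deubiquitinase that also restrains ubiquitin-conjugating enzymes. Here the outlying probe set was higher, not lower. In FVB, 1417705_at read 146, 101, 104 and 101, and elsewhere 4.37 to 44.7 with a median of 23.5. Of those 20 arrays 2 exceeded their threshold, so this probe set passed the filter through FVB, where all 4 did. The second probe set, 1448817_at, from the same sequence record, read 143, 119, 134 and 151 in FVB and 35.3 to 164 elsewhere. FVB had the highest mean at both, 3.59-fold above the other strains at 1417705_at and 1.35-fold at 1448817_at. The ratio of the 2 probe sets overlapped between FVB and other strains. The disagreement was 1.17 ± 0.23, and 0.63 or 1.55 with a pseudocount of 64 or 4.

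**Figure D1:**
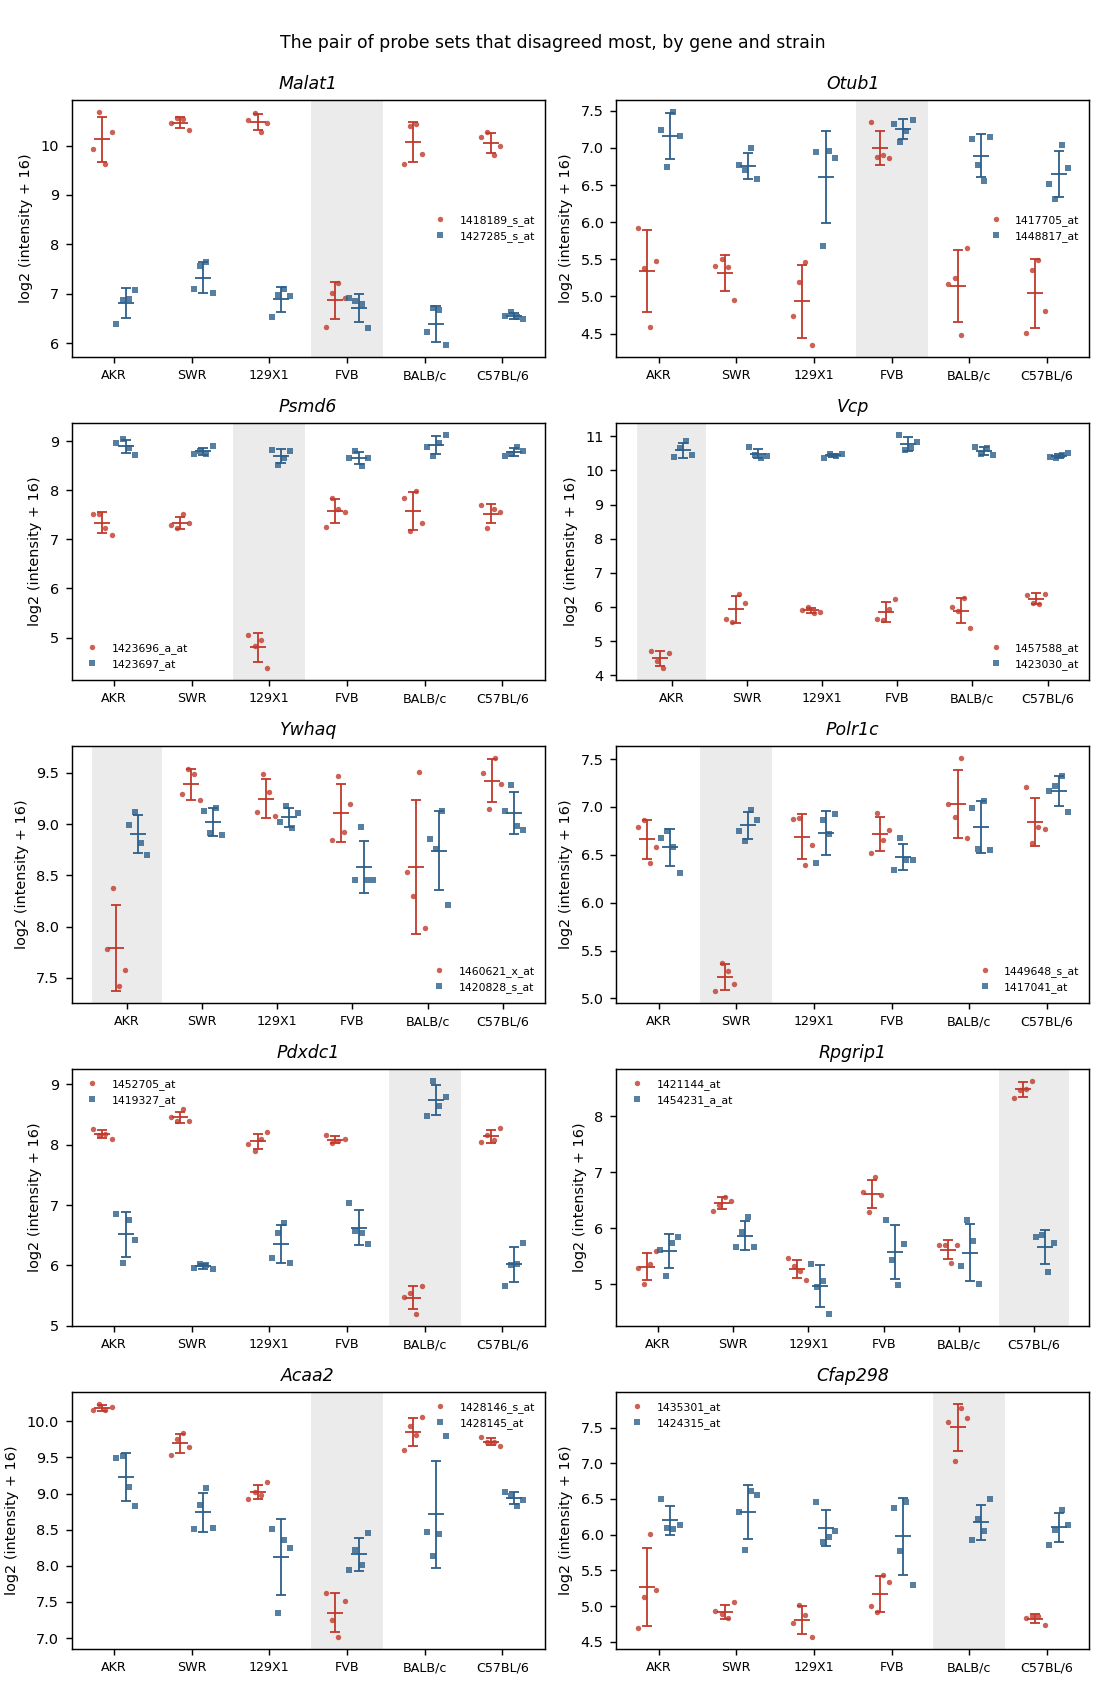
Log2 of intensity plus 16 (vertical axes) by strain (horizontal axes) at the 2 probe sets of each gene that disagreed most, with the outlying one as red circles, the other as blue squares, 1 point per array, and bars for the mean and SD of 4 arrays. The strain of widest disagreement is shaded: the red points leave the range of the other strains for 9 of the 10 genes, and the blue points do so for Pdxdc1 alone.

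Ywhaq encodes 14-3-3 theta, which binds phosphorylated partners and alters their location or activity. It has 7 tested probe sets, the most of these genes. At 1460621_x_at the AKR arrays read 204, 316, 156 and 174, and the other 20 arrays 238 to 787 with a median of 598. AKR had the lowest mean but overlapped other arrays, because 1 AKR array exceeded the lowest array elsewhere. At 1420828_s_at AKR read 494, 538, 435 and 399, within the 280 to 653 of the other strains. The AKR means differed from the others by 2.57-fold at the first and by 0.002 on the log2 scale at the second, with a disagreement of -1.14 ± 0.28.

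The other Ywhaq probe sets did not fall into a single pattern. AKR had the lowest strain mean at 4 of the 7, BALB/c at 2 and FVB at 1. The pair 1436846_x_at and 1437608_x_at was low in both AKR and BALB/c. At 1437608_x_at the mean intensity was 31.0 ± 3.28 in AKR and 25.4 ± 7.78 in BALB/c, while the remaining 4 strains had means of 101 to 148. The means of AKR and BALB/c there differed by less than the SD within BALB/c. This probe set was above the threshold for low values on 17 of the 24 arrays. The AKR and BALB/c arrays read 18.8 to 35.3, near or under that threshold, so which of these strains was lowest there is not reliable. Of the 21 pairs of Ywhaq probe sets 4 had a disagreement of at least 1, and 3 of these 4 involved BALB/c at 1437608_x_at. Within strains, 1460621_x_at and 1460590_s_at went up and down together over the arrays (r = 0.80 of deviations from the strain means, n = 24).

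Polr1c is a subunit shared by RNA polymerases I and III, which make ribosomal and transfer RNA. At 1449648_s_at the SWR arrays read 17.8, 25.4, 23.1 and 19.6, all under the threshold, and the other 20 arrays read 68.2 to 167 with a median of 93.6. SWR was separate from every other array. At 1417041_at SWR read 91.4, 84.2, 109 and 101, in the middle of the 63.4 to 144 seen elsewhere. SWR was 2.96-fold below the other strains at the first and 1.04-fold above them at the second. The disagreement was -1.35 ± 0.21, and -0.78 with a pseudocount of 64.

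Malat1 is a long noncoding RNA that gathers in nuclear speckles, where splicing factors are stored. At 1418189_s_at the FVB arrays read 64.4, 113, 132 and 105, and the other 20 arrays read 771 to 1635 with a median of 1242. FVB stood apart at a probe set that is bright in the other strains, and all 4 of its values were above the threshold. At 1427285_s_at FVB read 104, 100, 94.3 and 63.2, inside the 46.5 to 183 of the other arrays. The FVB mean was 10.4-fold lower at the first and 1.06-fold lower at the second, with a disagreement of -2.74 ± 0.52.

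Malat1 had 3 further probe sets, and none of them showed the FVB gap. FVB had the lowest mean at 1418188_a_at (9.14 ± 0.11, against 9.17 ± 0.40 in BALB/c) and at 1452378_at (7.36 ± 0.15, against 7.42 ± 0.06 in C57BL/6). Each gap was smaller than the larger of its pair of SDs. At 1438403_s_at the lowest mean was that of C57BL/6 (10.66 ± 0.35), next to FVB (10.79 ± 0.29). Without 1418189_s_at, the widest disagreement among the 6 pairs left was 0.46. The probe set 1418188_a_at is drawn from the same sequence record as 1418189_s_at, and over the arrays within strains the pair had r = 0.74.

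Acaa2 is the mitochondrial thiolase that ends each round of fatty acid beta-oxidation by releasing acetyl-CoA. At 1428146_s_at the FVB arrays read 182, 137, 113 and 167, and the other arrays 471 to 1195 with a median of 835. FVB was separate from all 20. At 1428145_at, from the same sequence record, FVB read 231, 283, 242 and 335 and the others 147 to 877. FVB lay on the low side there without leaving the range, 1.503-fold below the mean of the other strains, against 5.07-fold at 1428146_s_at. The disagreement was -1.46 ± 0.32.

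The third Acaa2 probe set followed the second. The order of strain means at 1428146_s_at ran from AKR (10.19 ± 0.04) through BALB/c (9.85 ± 0.19), C57BL/6 (9.72 ± 0.05), SWR (9.69 ± 0.13) and 129X1 (9.02 ± 0.10) to FVB (7.35 ± 0.27). The step from BALB/c to C57BL/6 was smaller than the SD of BALB/c, and the step on to SWR was smaller than either SD. At 1428145_at and 1455061_a_at AKR was also highest, with 9.23 ± 0.33 and 9.06 ± 0.29. FVB and 129X1 were both low, with 8.16 ± 0.23 and 8.12 ± 0.53 at 1428145_at and 8.00 ± 0.26 and 8.12 ± 0.20 at 1455061_a_at. The widest disagreement between these 2 probe sets was 0.093. Adipocyte markers, of which 3 of 6 were tested, summed to 205 to 3626 over the FVB arrays, 366 to 3393 in BALB/c and 77.5 to 140 in C57BL/6, and their part in the Acaa2 values was not tested. In bulk tissue, fewer cells of a type and less RNA per cell cannot be told apart.

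Pdxdc1 encodes a protein with a pyridoxal-dependent decarboxylase domain whose substrate is not well known. It had the widest disagreement of these genes, and its probe sets departed in opposite directions. At 1452705_at the BALB/c arrays read 28.6, 30.4, 20.5 and 34.2, of which 1 was above its threshold, and the other 20 read 223 to 369. At 1419327_at the BALB/c arrays read 338, 519, 383 and 426, and the other 20 read 34.6 to 115. BALB/c was separate from all other arrays at both, below them at the first by 6.59-fold and above them at the second by 5.43-fold. The log2 ratio of the pair was -3.28 in BALB/c, where the other 5 strains had 1.46 to 2.48. The disagreement was -4.302 ± 0.25, and it was -3.15 and -4.81 with a pseudocount of 64 and 4.

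The remaining 2 Pdxdc1 probe sets were also lowest in BALB/c. The BALB/c mean was 6.37 ± 0.36 at 1436372_a_at, with 7.09 ± 0.22 in FVB as the next lowest. At 1428200_a_at it was 5.55 ± 0.27, next to 5.93 ± 0.11 in FVB. So 3 of the 4 probe sets had their lowest mean in BALB/c and 1 its highest, and 5 of the 6 pairs had a disagreement of at least 1. The gaps at the 2 fainter ones were smaller than at 1452705_at, and the pair of 1428200_a_at and 1452705_at, drawn from the same sequence record, disagreed by 1.84.

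**Figure D2:**
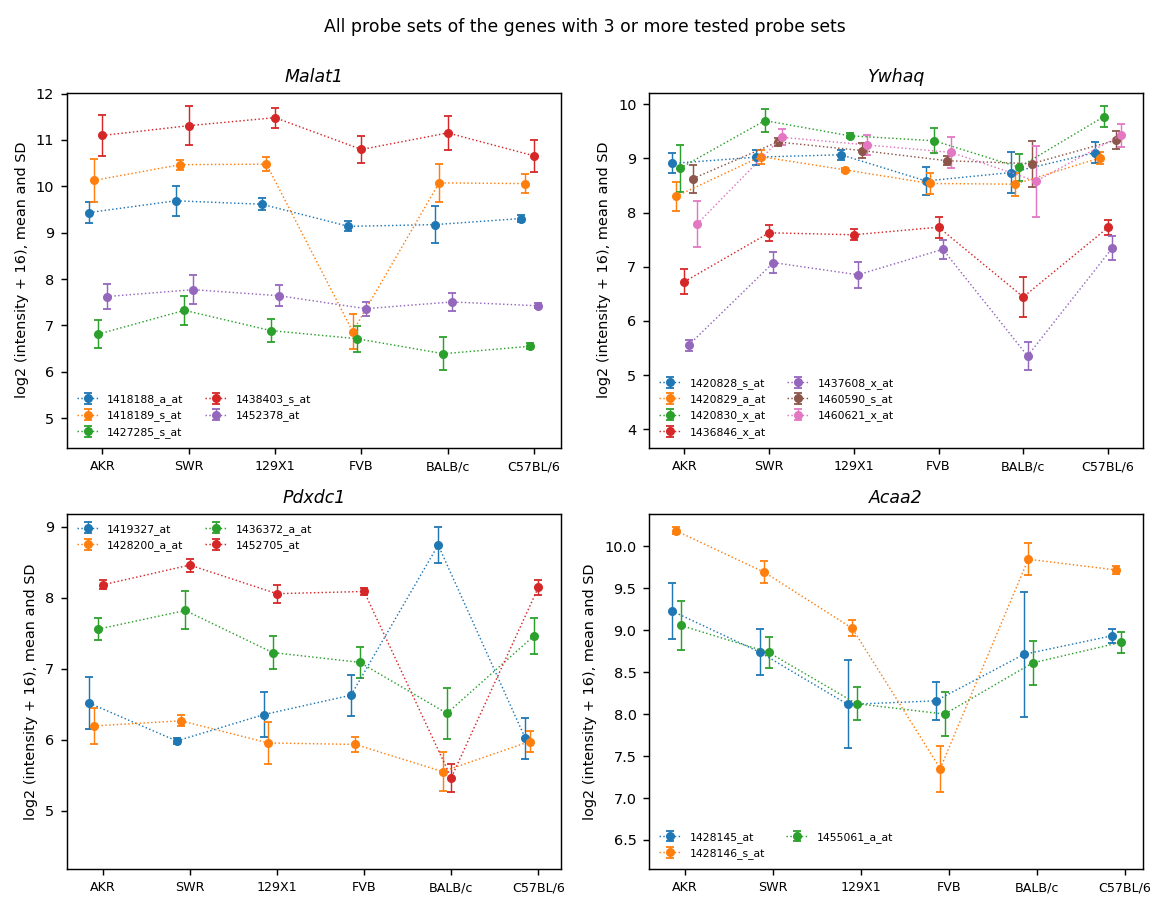
Strain means and SDs (n = 4 arrays) of log2 intensity plus 16 at every tested probe set of the 4 genes with 3 or more of them, by strain. In Malat1 and Acaa2 a single line leaves the others in FVB, in Pdxdc1 one line is highest and the others lowest in BALB/c, and in Ywhaq most lines dip in AKR, BALB/c or both.

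Rpgrip1 anchors proteins in the connecting cilium, the ciliary transition zone, and is best known from photoreceptors. At 1421144_at the C57BL/6 arrays read 305, 337, 343 and 381, and the other 20 read 16.3 to 104 with a median of 36.1. C57BL/6 was separate from all. The next strains were FVB (6.61 ± 0.25 on the log2 scale) and SWR (6.45 ± 0.11), which differed by less than the SD of FVB, against 8.48 ± 0.13 in C57BL/6. BALB/c, AKR and 129X1 lay between 5.28 and 5.62. At 1454231_a_at C57BL/6 read 41.6, 43.1, 21.3 and 37.3, like the 6.20 to 57.7 elsewhere, and only 10 of those 20 arrays were above the threshold. C57BL/6 was 6.16-fold above the other strains at the first and 1.12-fold above at the second, with a disagreement of 2.05 ± 0.36. The probe sets 1431357_a_at and 1451785_at were above the threshold on 0 arrays and were not tested.

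Cfap298 is a protein needed to assemble the dynein arms that move cilia and flagella. At 1435301_at the BALB/c arrays read 175, 115, 203 and 183, and the other arrays 7.70 to 48.4 with a median of 13.9. BALB/c stood apart, and 1 of the other 20 arrays was above the threshold, so the probe set passed the filter through BALB/c. At 1424315_at BALB/c read 44.9, 58.5, 50.2 and 74.4, inside the 23.4 to 81.4 of the others. BALB/c was 5.68-fold above the other strains at the first and 1.03-fold at the second, with a disagreement of 2.06 ± 0.44, and 1.25 with a pseudocount of 64. The probe set 1455276_x_at also had its highest mean in BALB/c, with an intensity of 43.7, where elsewhere its means were 5.57 to 12.7. It exceeded the threshold on 3 arrays, 1 fewer than the filter asks, and 1437682_x_at on 0 arrays, so neither was tested.

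Counted together, the outlying probe set separated its strain from the other 20 arrays in 9 of the 10 genes, Ywhaq being the exception, and the other probe set did so in 1. The ratio of the pair separated the strain in 9 of 10, with Otub1 as the exception. Over all 3315 genes with several tested probe sets, the ratio of the widest pair separated a strain in 4.56%. The genes were chosen for such patterns, so these shares only describe them. The outlying probe set was lower in its strain in 7 genes and higher in 3. The strain was FVB for 3 genes, AKR and BALB/c for 2 each, and SWR, 129X1 and C57BL/6 for 1 each.

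The same measure over all genes is given for scale only. The 10 genes were chosen for such disagreement, so their high ranks follow from the choice. A gene with more probe sets, such as Ywhaq with 21 pairs, also has more pairs from which the widest is taken. The widest disagreement of a gene had a median of 0.38 over the 3315 genes, a 90th percentile of 0.71 and a 99th percentile of 1.33. At least 1 was reached by 93 genes, 2.81%, and at least 2 by 12 genes, of which 5 were Pdxdc1, Malat1, Psmd6, Cfap298 and Rpgrip1. Pdxdc1 ranked 2 and Malat1 ranked 4, while Otub1 and Ywhaq ranked 54 and 65. Of the 93 genes 28 had their widest disagreement in BALB/c, 23 in C57BL/6, 16 in AKR, 12 in 129X1, 8 in SWR and 6 in FVB, so FVB held 3 of these 10 genes and 3 others.

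**Figure D3:**
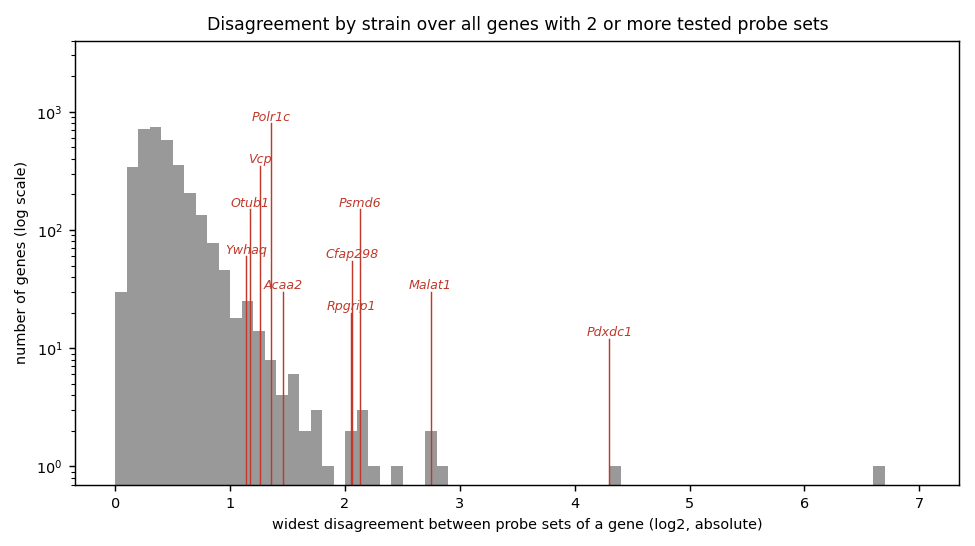
Histogram of the widest disagreement between probe sets of a gene (horizontal axis, absolute log2) over the 3315 genes with at least 2 tested probe sets, with the number of genes on a log axis. Red lines mark the 10 genes, from 1.14 for Ywhaq to 4.302 for Pdxdc1, where the median gene is at 0.38.

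Where on the sequence the probe sets came from was not uniform. In 3 of the 9 pairs with known source records (Otub1, Psmd6 and Acaa2) both probe sets were drawn from the same record, and in 6 from different ones. Over all genes the widest pair shared a record in 52.1%, and in 29.7% of the genes with a disagreement of at least 1. By name, 6 of the 35 probe sets were of the _x_at kind, 7 _s_at, 8 _a_at and 14 plain _at. After the strain means were taken out, the 2 probe sets of a pair correlated over the 24 arrays with a median r of 0.25 for these genes, from -0.18 in Vcp and Cfap298 to 0.65 in Ywhaq. The median over the widest pairs of all genes was 0.091. These correlations share arrays and array scaling, and low signals weaken them.

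A list of partner genes was set for each gene and measured in the same strain. Some lists hold genes of a shared complex or pathway, and others hold relatives from the same protein family. The decarboxylases listed for Pdxdc1 share the cofactor pyridoxal phosphate, and not all of them, Odc1 among these, are of its protein family. The lists were chosen with earlier results of these data known. Each partner gene was taken at its brightest tested probe set, and the strain was compared with the mean of the other 5 by limma, with Benjamini-Hochberg adjustment over all tested probe sets. In that test 7% of all 9431 genes were called in FVB, 9.28% in AKR, 10.6% in SWR, 11.7% in 129X1, 17.4% in BALB/c and 10.8% in C57BL/6. Of 127 tested partners 11 were called, 8.66%, and 4 of these were higher and 7 lower. A further 3 partners, Sel1l, Ywhaz and Tardbp, named after their values were seen, had 1 other probe set called and not the brightest. The median difference of all genes lay between -0.02 and 0.03 in each strain.

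For the ubiquitin system, other proteasome subunits in 129X1 had a median difference of -0.06 on the log2 scale, and 1 of 31 was called. Psmb1, a subunit of the catalytic core, was 1.25-fold lower in 129X1 (-0.33 ± 0.08 SE, adjusted p = 0.0084 by limma). That call was lost without 129X1 replicate 4 (adjusted p = 0.066 by limma) and with the mean of its 3 probe sets (adjusted p = 0.058). At an unadjusted p under 0.05 there were 6 of 31 subunits, all lower, where 24.6% of all genes passed in 129X1 and 11.4% passed as lower. Of the Vcp cofactors and factors of endoplasmic reticulum degradation 2 of 19 were lower in AKR. Derl1, part of the channel through which misfolded proteins leave the endoplasmic reticulum, was 1.29-fold lower (adjusted p = 0.0051), but not with the mean of its 4 probe sets (adjusted p = 0.62). Ube4b, a ubiquitin ligase that extends ubiquitin chains, was 1.23-fold lower (adjusted p = 0.035). Its call was lost without AKR replicate 3 (adjusted p = 0.2) or replicate 4 (adjusted p = 0.13), with the mean of its 2 probe sets (adjusted p = 0.3), and with the deposited values unscaled (adjusted p = 0.063). Of the deubiquitinases related to Otub1 and the conjugating enzymes, limma called 0 of 16 in FVB, with 2 at an unadjusted p under 0.05, which 19.6% of all genes reached there.

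Of the other 14-3-3 genes 1 of 5 was called in AKR. Ywhah, which encodes 14-3-3 eta, was 1.30-fold higher in AKR (0.38 ± 0.09 SE, adjusted p = 0.0068 by limma), and the call held in every alternative tried, with adjusted p up to 0.039. Ywhab, Ywhae, Ywhag and Ywhaz were not called at their brightest probe sets, with differences from -0.09 to 0.18. Of the RNA polymerase I and III subunits 1 of 15 was called in SWR. Polr3f, a subunit of polymerase III, was 1.31-fold higher (adjusted p = 0.046). The call was marginal: leaving out 1 array ended it for 15 of the 24 arrays, with adjusted p from 0.05 to 0.21, the largest values without SWR replicate 2 and without SWR replicate 3. It also had an adjusted p of 0.062 with the replicate number as a block. Of the nuclear speckle and paraspeckle genes beside Malat1, limma called 0 of 13 in FVB, and 0 had an unadjusted p under 0.05. Neat1, the noncoding RNA of paraspeckles and the chromosomal neighbour of Malat1, differed by 0.02 in FVB (adjusted p = 0.96).

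Of the pyridoxal phosphate decarboxylases 3 of 5 were called, the largest share among the 9 partner lists with tested genes. All 3 were lower in BALB/c, where 17.4% of all genes were called and 9.16% were called lower. Odc1, the rate-limiting enzyme of polyamine synthesis, was 1.72-fold lower in BALB/c (-0.78 ± 0.07 SE, adjusted p = 7.6e-08 by limma), and all 3 of its probe sets were called lower. Csad, which acts in taurine synthesis, was 1.32-fold lower (adjusted p = 0.0061). Sgpl1, which splits sphingosine phosphate, was also 1.32-fold lower (adjusted p = 0.028). The Sgpl1 call was lost without BALB/c replicates 1, 3 or 4, with adjusted p from 0.065 to 0.14, and with quantile normalization (adjusted p = 0.052). Gad1 and Gad2, which make the transmitter GABA, were not called, with differences of 0.56 and 0.22. Beside these BALB/c values, the summed luminal markers were 24925 to 27973 in BALB/c and 15045 to 24606 in the other strains, and their part in them was not tested.

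Of the enzymes and transporters of mitochondrial fatty acid oxidation 3 of 18 were called in FVB, and they did not move in the same direction as each other. Hadh, the dehydrogenase of the step before the thiolase, was 1.33-fold higher (0.42 ± 0.09 SE, adjusted p = 0.0062 by limma). It was called at 1 of its 2 tested probe sets. Acadl, an acyl-CoA dehydrogenase for long chains, was 1.31-fold higher (adjusted p = 0.018), but not without FVB replicate 2 (adjusted p = 0.12) or replicate 4 (adjusted p = 0.062). Echs1, the enoyl-CoA hydratase, was 1.26-fold lower (adjusted p = 0.0097), but not without FVB replicate 1 (adjusted p = 0.064) or replicate 3 (adjusted p = 0.086). Hadha and Hadhb, the subunits of the trifunctional protein, were not called, with differences of 0.14 and -0.07. For cilia, 3 of 11 transition zone genes were on the array under a single symbol and 0 passed the filter, so Rpgrip1 had no partners to compare. Of the axonemal dynein and assembly genes 5 of 17 were tested, and limma called 0 of the 5 in BALB/c, with 0 at an unadjusted p under 0.05, which 30.2% of all genes reached there. Their differences were between 0.00 and 0.09.

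**Figure D4:**
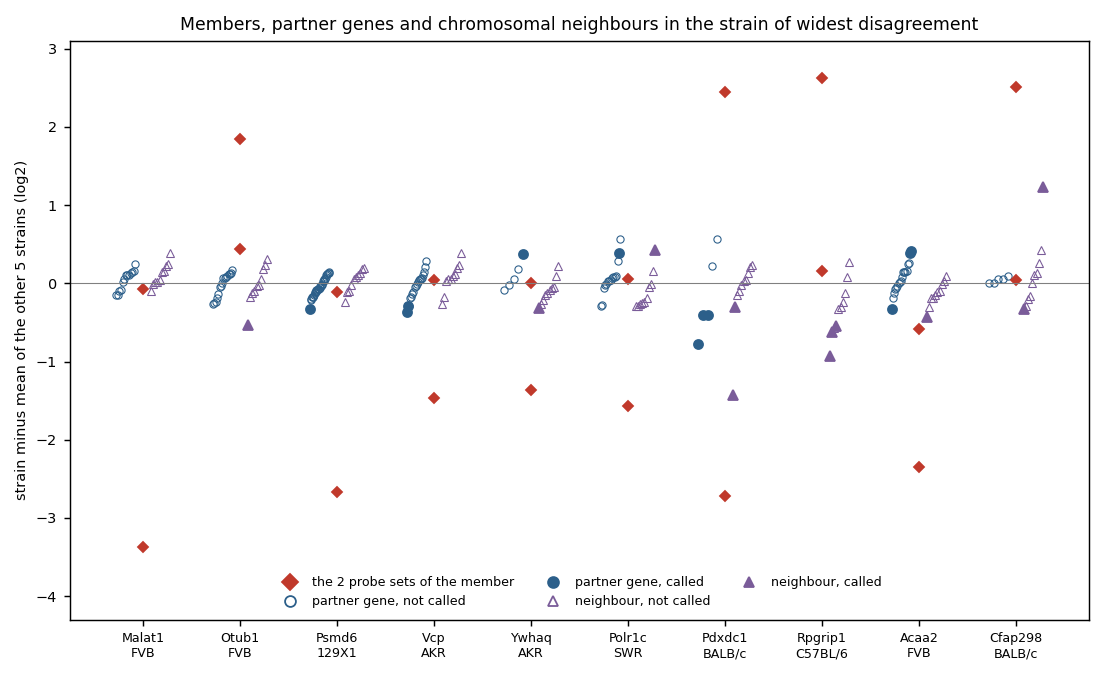
Log2 difference of the strain from the mean of the other 5 strains (vertical axis) for the 2 probe sets of each gene (red diamonds), its partner genes (blue circles) and its 10 nearest tested genes on the chromosome (purple triangles), with filled symbols for genes called at an adjusted p under 0.05. Called partners lie between -0.78 and 0.42 and called neighbours between -1.43 and 1.23, while the outlying probe sets lie between -3.37 and 2.62.

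The nearest tested genes on the chromosome, 5 on each side in RefSeq gene order, were compared in the same way. Of 100 neighbours 11 were called, 11%, and 9 of these were lower. That share was within the range of all genes in the same test, from 7% called in FVB to 17.4% in BALB/c. For Malat1, Psmd6 and Vcp, limma called 0 of 10 neighbours each, with 2, 0 and 2 at an unadjusted p under 0.05, which 19.6%, 24.6% and 23.1% of all genes reached in FVB, 129X1 and AKR. These counts rest on the brightest probe set: 7 neighbours not called there had another probe set called. Beside Malat1 it was Ltbp3, with 1 of 2 probe sets called higher in FVB. Beside Vcp it was Pigo, with 2 of 3 called higher in AKR. Beside Ywhaq in AKR, Adam17 had 1 of 3 called lower and Rrm2 1 of 3 called higher. Beside Rpgrip1 in C57BL/6, Rab2b had 2 of 4 called lower and Mettl17 1 of 3 called lower. Beside Acaa2 in FVB, Mbd1 had 1 of 3 called lower. All 7 are named after their values were seen. Beside Otub1, Cox8a, a subunit of cytochrome c oxidase, was 1.45-fold lower in FVB (adjusted p = 0.00013), but not with the mean of its 3 probe sets (adjusted p = 0.31). Beside Ywhaq, Cpsf3, the nuclease that cuts messenger RNA at its 3′ end, was 1.24-fold lower in AKR (adjusted p = 0.021 by limma). It was called at 1 of its 2 tested probe sets. That call was lost without AKR replicate 1 (adjusted p = 0.059) or replicate 4 (adjusted p = 0.1). Beside Polr1c, Yipf3, a Golgi membrane protein and the next tested gene, was 1.35-fold higher in SWR (adjusted p = 0.00068) in every alternative tried.

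Beside Pdxdc1, 2 of 10 neighbours were called, both lower in BALB/c, where 17.4% of all genes were called and 9.16% were called lower. Myh11, the myosin heavy chain of smooth muscle, was 2.69-fold lower (-1.43 ± 0.15 SE, adjusted p = 3.6e-07 by limma), at 1 of its 2 tested probe sets. It is also a smooth muscle marker: the 6 tested markers of that tissue summed to 4029 to 4161 in BALB/c and to 4573 to 10946 in the other strains, and their part in this result was not tested. Parn, which shortens poly(A) tails, was 1.23-fold lower (adjusted p = 0.0063 by limma), at 1 of its 2 tested probe sets. Beside Acaa2, the adjacent tested gene Lipg, an endothelial lipase, was 1.35-fold lower in FVB (adjusted p = 0.022). Its call was lost without FVB replicate 2 (adjusted p = 0.14) or replicate 4 (adjusted p = 0.11).

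Around Rpgrip1 3 of 10 neighbours were called, all lower in C57BL/6, where 10.8% of all genes were called and 5.66% were called lower. Ndrg2, a gene of the NDRG family, was 1.91-fold lower (-0.93 ± 0.14 SE, adjusted p = 4.6e-05 by limma), and the chromatin remodeller Chd8 was 1.54-fold lower (adjusted p = 0.0037). The third, Supt16, a subunit of the histone chaperone FACT and the next tested gene, was 1.46-fold lower (adjusted p = 6.4e-06). It is named outside the rule of 2 neighbours per gene, after its values were seen. Around Cfap298, Sod1, the cytosolic superoxide dismutase, was 2.35-fold higher in BALB/c (1.23 ± 0.22 SE, adjusted p = 0.00031 by limma), at 1 of its 2 tested probe sets. Paxbp1, the adjacent tested gene, was 1.25-fold lower (adjusted p = 0.014), but not without BALB/c replicate 1 (adjusted p = 0.088) or replicate 4 (adjusted p = 0.05), or with the mean of its 2 probe sets (adjusted p = 0.25).

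For each gene, the other genes most like its widest-ranging probe set were found by Pearson correlation over the 24 arrays, which share strain, array scaling and tissue makeup. For Psmd6 they were Serinc3 (r = 0.97) and Ghitm (r = 0.95), for Vcp Odr4 (0.91) and H2-D1 (0.87), and for Otub1 Ibsp (0.82) and Clu (0.81). For Ywhaq, at 1437608_x_at, they were Kif5b (r = 0.92) and Mycbp2 (0.85), for Polr1c Dmac2l (0.89) and Nupr1 (0.85), and for Malat1 Ndufv1 (0.91) and Clic4 (0.87). For Pdxdc1 they were Phgdh (r = 0.96) and Coro2a (0.94), and for Rpgrip1 C1qtnf12 (0.91) and Ivd (0.88). Acaa2 was most like Tpd52l1 (r = 0.88) and Malat1 at 1418189_s_at (0.85), both being low in FVB. Cfap298 was most like H2-D1 (r = 0.97), at a different probe set from the H2-D1 match of Vcp, and Pdxdc1 at 1419327_at (0.91). Of these pairs 3 lie on the same chromosome: Malat1 and Ndufv1 with 45 tested genes between them, Psmd6 and Ghitm with 89, and Cfap298 and Pdxdc1 with 220. Several of these nearest genes, H2-D1, Phgdh and C1qtnf12, were themselves among the 12 genes with a disagreement of at least 2 between probe sets.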

How the data were processed

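The deposited table gives linear MAS5 intensities, 1 per probe set for each array, made by the authors per the submitters' processing notes, with version and settings not given in the sources used here. All columns had the same mean, 143. Arrays were rescaled to a 2% trimmed mean of 98.7 (91.4 to 105 before), 16 was added and log2 taken. Of 22690 probe sets, 64 controls and 6851 not above their array's 40th percentile on at least 4 arrays were left out, leaving 15775. Names came from the platform annotation (20393 probe sets with 1 symbol, 691 with several, 1606 with none). RefSeq GRCm38.p6 gave the gene order and the symbol used for the probe sets it matched (20364 matched). The number of arrays limits the precision.

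limma 3.58.1 in R 4.3.3 was fitted with 1 coefficient per strain and Benjamini-Hochberg adjustment at 0.05 (two-sided), and was tested on simulated data. Named were all 10 genes, at most the 4 called partners and 2 called neighbours per gene with the largest difference, and the 2 most similar genes. The genes, partner lists and rules were chosen with earlier results of these data known. Alternatives were other pseudocounts, no filter, quantile or no scaling, the replicate number as a block, averaged probe sets, more neighbours, strain medians and leaving out each array.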

Additional observations from a re-analysis of the deposited data

Results flagged for a closer look

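Among 30 groups of 4 arrays (the outlying probe set, the other one and their log2 ratio, for each gene in its strain of widest disagreement), 4 held an array far from the other 3 by Dixon's criterion, where chance gives about 1 in 20. These groups are not independent, since each ratio is made from the other groups of its gene, so that rate is only a rough guide. For Otub1 1417705_at in FVB, replicate 1 read 7.344 on the log2 scale and the other arrays 6.87 to 6.906. For the Psmd6 log2 ratio in 129X1, replicate 4 was at -4.415 and the others at -3.77 to -3.688. For the Polr1c log2 ratio in SWR, replicate 2 was at -1.274 and the others at -1.711 to -1.669. In both the Psmd6 and the Polr1c ratio, the outlying probe set was under the threshold for low values on all 4 arrays. Values under it have no reliable order. For the Acaa2 log2 ratio in FVB, replicate 1 was at -0.3213 and the others at -0.9998 to -0.94. Without these arrays the disagreement was 1.10 for Otub1, -1.99 for Psmd6, -1.44 for Polr1c and -1.60 for Acaa2.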

How the results depend on the processing

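The disagreement kept its sign for all 10 genes under every alternative. It stayed within 1 SD of the reported value with each array left out (240 of 240 values) and in 57 of 70 values with all arrays. The others were with another pseudocount. With 4 it was 1.554 for Otub1, -2.749 for Psmd6, -1.933 for Vcp, -1.692 for Polr1c, -4.809 for Pdxdc1 and 2.55 for Cfap298. With 64 it was 0.626 for Otub1, -1.225 for Psmd6, -0.5756 for Vcp, -0.7779 for Polr1c, -3.148 for Pdxdc1, 1.53 for Rpgrip1 and 1.25 for Cfap298, since a constant added to faint signals shrinks their differences. Partner calls numbered 8 to 13 over the alternatives and 9 to 13 with an array left out, against 11. Neighbour calls numbered 10 to 12 with an array left out, against 11 of 100. With 10 neighbours on each side they numbered 19, out of a larger set of genes, so that count is not comparable with 11. The F test called 5521 to 6106 probe sets under the alternatives and 5165 to 6019 with an array left out. Folds above that rest on faint probe sets, near the bottom of the intensity range, are limited by this. For Malat1, Ywhaq and Acaa2 the disagreement stayed within 1 SD of the reported value with either pseudocount. With the replicate block the F test called 5521 probe sets, and 10 partners and 11 neighbours were called, with only Polr3f lost among the named genes. The numbers do not pair the arrays: over 60 pairs of arrays with the same number in different strains, the mean r of deviations was 0.0053, from -0.21 to 0.15, and 3 of 24 arrays matched best at their own number.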
